A study of Mus musculus with 4 samples.

Results

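Keratins are the proteins of the intermediate filaments of epithelial cells. The genes described here are the 40 keratin genes measured on the array, out of 12393 genes in all. A gene was a member if a probe set (the short probes that together report 1 transcript) carried a single symbol made of Krt, a number and at most 1 letter. The rule used names alone and no measured value; it took 49 probe sets, and the brightest over the 4 arrays stood for each gene. The cells came from the back skin of mice at postnatal day 49, when most back skin follicles rest in telogen. The mice carried K14-GFP-actin, a transgene in which the Krt14 promoter drives GFP fused to actin, so every cell analysed had been sorted for a reporter driven by a keratin promoter of basal keratinocytes. The bulge basal group (2 arrays) held living GFP-positive cells that stained strongly for both α6 integrin and CD34, which selects the basal layer of the bulge, the resting stem cell niche of the follicle. The total epidermis group (2 arrays) held all living GFP-positive cells, bulge cells included. The labels give no strain or sex, do not say whether the replicates came from separate animals or pools, and enter the same cell type, basal bulge stem cells, for all 4 samples. The groups were therefore taken from the titles. P-values measure the spread between these arrays alone, and that spread may be technical.

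A keratin filament is built from pairs of a type I (acidic) and a type II (neutral to basic) keratin, and the pair changes with the position and state of the cell. Basal keratinocytes use Krt5 with Krt14, and bulge cells add the type I keratin Krt15. Cells that leave the basal layer of the epidermis turn on Krt1 and Krt10, while the ducts, the companion layer, the inner root sheath and the hair shaft each use keratins of their own.

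The gate was checked on 8 bulge stem cell markers. Their summed signals were 38288 and 33614 on the bulge basal arrays, against 8471 and 7285 on the total epidermis arrays. All but Itga6 were higher on both bulge basal arrays. Itga6, which encodes the α6 integrin of the gate, was lower on both, with 3312 and 1693 in bulge basal cells, against 5642 and 3491 in total epidermis cells (1.87-fold, not called). Cd34, the other marker of the gate, gave 15697 and 14034 of the bulge basal sums, against 844 and 1144 in total epidermis cells. The sums are thus not independent of the sort. Each array had been scaled to a trimmed mean of 500.0, and the highest signals lay between 29183 and 40835. A signal of 150.0, the 95th percentile over 67 olfactory, vomeronasal and taste receptor genes, was taken as the background level. Of the 40 keratin genes, 18 were above it on at least 1 array, against 62.8% of all genes. In a sort of this kind, fewer cells of a type and less RNA per cell cannot be told apart.

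Krt5 and Krt15 of the basal layer were close between the groups and Krt14 varied with the probe set read, whereas single keratins of the suprabasal layers and the ducts, Krt1 and Krt79, were about 10-fold lower in bulge basal cells (9.94-fold and 10.99-fold). Krt6a and Krt75, keratins of the companion layer, were higher by 3.06-fold and by at least 2.17-fold, without passing the test. Krt6b and Krt16, keratins of activated epidermis described with them, were lower on both bulge basal arrays. They were 2.89-fold and at least 4.21-fold lower, also without passing. The test was limma on log2 signals over all 12393 genes, with Benjamini-Hochberg adjustment and a threshold of 0.05. It called 0 of the 40 keratin genes and 0.00% of all genes. At an unadjusted p under 0.05, 2 keratin genes were higher and 4 lower, against 5.18% and 5.29% of all genes. Of the 4 lower, Krt35 was below background on all arrays. A limma fit in which the expected variance follows the signal, here called the trended fit, called 2 keratin genes lower, Krt1 and Krt79, against 0.524% of all genes, and 0 higher, against 0.557%. "Fell" and "rose" refer to that fit below. The groups did not overlap for 5 keratin genes that were higher in bulge basal cells (18.0% of all genes) and for 10 that were lower (20.5% of all genes). Of these, 4 higher and 5 lower keratins were among the 18 above background, against 1556 and 1669 of the 7789 genes above it. The median log2 difference, bulge basal minus total epidermis, was -0.30 over the 40 keratins, -0.20 over the 18 above background and -0.02 over all genes.

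**Figure D1:**
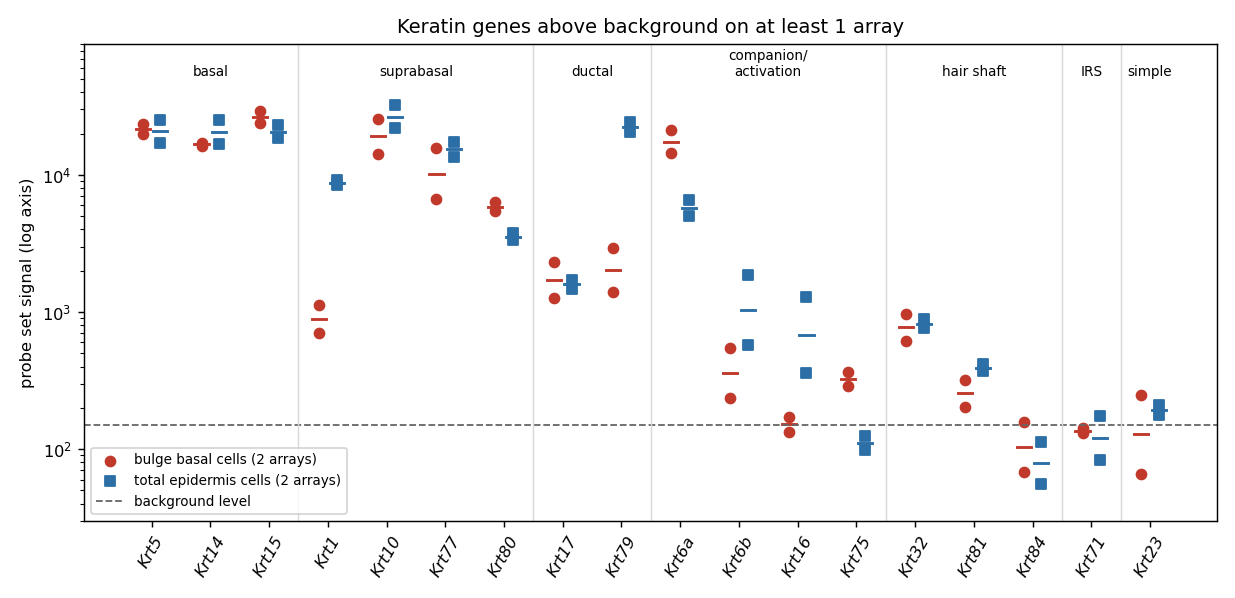
Probe set signal on a log axis for the 18 keratin genes above background on at least 1 array, ordered by compartment (IRS, inner root sheath). Points are single arrays, short lines are group means on the log scale and the dashed line is the background level of 150.0. The groups separate most widely for Krt1 and Krt79, lower in bulge basal cells. They are also separate for Krt6a, Krt75, Krt15 and Krt80, higher there, and for Krt16, Krt6b and Krt81, lower there.

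All 3 basal keratins were bright on every array. Krt5, the type II keratin of basal keratinocytes, had signals of 19704 and 23470 on the bulge basal arrays, against 17157 and 25295 on the total epidermis arrays. The bulge basal values lay inside the range of the total epidermis values, and the log2 difference was 0.05 ± 0.41 (SE, 95% interval -0.998 to 1.09). Krt14, its type I partner and the source of the reporter's promoter, had 17045 and 16253 in bulge basal cells, against 16820 and 25125 in total epidermis cells. Its groups overlapped, with a log2 difference of -0.30 (interval -1.34 to 0.73). Krt15, the type I keratin that marks the bulge in resting follicles, had 29397 and 23725 in bulge basal cells, against 18548 and 22957 in total epidermis cells. Both bulge basal arrays were above both total epidermis arrays, the closest pair by a small margin. The log2 difference was 0.36 ± 0.39 (SE, interval -0.63 to 1.34) and did not pass (adjusted p = 0.893, limma).

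Krt14 had 3 probe sets that differed from each other. The brightest is given above; the second had 11891 and 13035 in bulge basal cells, against 18700 and 20539 in total epidermis cells, a log2 difference of -0.65. The dimmest (1455573_at) had 796 and 288 in bulge basal cells, against 2462 and 2653 in total epidermis cells. That is a log2 difference of -2.42 ± 0.60 (SE), which did not pass over all probe sets (adjusted p = 0.266 in limma and 0.142 in the trended fit). Both of these had separate groups, so the size of the Krt14 difference depended on the probe set read. All 3 log2 differences were negative, but the groups of the brightest overlapped. The brightest (1423935_x_at) carries an x in its name, which marks probes that can match related transcripts, and the mean over the 3 gave a log2 difference of -1.13, not called. A further probe set is annotated to both Krt17 and Krt14 and was left out.

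Among the 5 suprabasal keratins measured, 1 fell (0.524% of all genes did) and 4 did not pass. Krt1, the type II keratin of the first suprabasal layers, had signals of 699 and 1118 on the bulge basal arrays, against 8379 and 9221 on the total epidermis arrays. Every bulge basal value was far below every total epidermis value. Krt1 fell by 3.31 on the log2 scale, with an SE of 0.38 in the trended fit (adjusted p = 0.0297) and of 0.42 in the plain fit (adjusted p = 0.0824). Krt10, the type I partner of Krt1, had 14290 and 25650 in bulge basal cells, against 21849 and 32170 in total epidermis cells. The groups overlapped, and the log2 difference of -0.47 (interval -1.69 to 0.75) did not pass. The log2 difference of Krt1 departed from that of Krt10 by -2.84, and the within-array ratios of Krt1 to Krt10 did not overlap between the groups. The ratios of Krt5 to Krt14 did not overlap either, at a departure of only 0.35, so separate ratios alone carry little weight.

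The other suprabasal keratins had smaller differences. Krt77, a type II keratin of suprabasal epidermis, had 6616 and 15625 in bulge basal cells, against 13542 and 17489 in total epidermis cells, with a log2 difference of -0.60 (interval -1.97 to 0.77). The 2 bulge basal arrays lay far apart, and the higher of them fell inside the total epidermis range. Krt80, a type II keratin of differentiating epithelia, had 6380 and 5405 in bulge basal cells, against 3351 and 3761 in total epidermis cells. It was higher on both bulge basal arrays, by 0.73 ± 0.38 (SE) on the log2 scale, and did not pass (adjusted p = 0.635, limma). Krt2, a keratin of the upper suprabasal layers, was below background on all 4 arrays. Differences between 7 pairs of keratins were compared by an exact two-sided permutation test over the 4 arrays, whose smallest possible p is 0.333. Krt1 against Krt10 had an exact p of 0.333 (0.389 adjusted over the 7 pairs), so the design could not reach the threshold.

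Krt79, a type II keratin of the infundibulum and the sebaceous duct, had signals of 1392 and 2951 on the bulge basal arrays, against 20471 and 24226 on the total epidermis arrays. The groups stood far apart and all 4 values were well above background. Krt79 fell by 3.46 on the log2 scale, with an SE of 0.47 in the trended fit (adjusted p = 0.0426) and of 0.50 in the plain fit (adjusted p = 0.095). Krt17, a type I keratin of the outer root sheath and the ducts, had 1273 and 2309 in bulge basal cells, against 1477 and 1717 in total epidermis cells. The bulge basal arrays lay on either side of the total epidermis arrays, and the log2 difference was 0.11 (interval -1.05 to 1.26). The log2 difference of Krt79 departed from that of Krt17 by -3.56, with no overlap of the within-array ratios (exact p = 0.333, the smallest possible).

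With 1 array of a group left out, the spread comes from the other group's pair alone, and replicates differed more in bulge basal cells (SD of the log2 difference between replicates 0.92) than in total epidermis cells (0.55). Without total epidermis replicate 1 their adjusted p in the trended fit was 0.146 for both, and without total epidermis replicate 2 it was 0.165 for Krt1 and 0.183 for Krt79; these fits called 0 of all genes. The size changed little: over all arrays left out in turn the log2 difference ran between -3.65 and -2.98 for Krt1 and between -3.999 and -2.92 for Krt79. Markers of other cell types were measured on the same arrays, with calls in the trended fit for 3 of 7 Langerhans cell and macrophage markers and 1 of 5 T cell markers, all lower, and for 0 melanocyte, sebocyte or fibroblast markers. The summed signal of 7 Langerhans cell and macrophage markers was 1032 and 1498 in bulge basal cells, against 9827 and 11338 in total epidermis cells, and 2 of the 7, Itgam and Lyz2, were below background throughout. For 5 T cell markers the sums were 231 and 409 in bulge basal cells, against 1728 and 3003 in total epidermis cells, and for 5 melanocyte markers they were 854 and 725 in bulge basal cells, against 1748 and 1562 in total epidermis cells. For 6 fibroblast markers the sums were 4335 and 1764 in bulge basal cells, against 701 and 557 in total epidermis cells, of which Col1a2 alone gave 3852 and 1541 in bulge basal cells and 343 and 286 in total epidermis cells. Col3a1, Pdgfra, Lum and Dcn were below background on all arrays. Of 5 sebocyte markers measured, all but Cidea were above background on at least 1 array, with sums of 3018 and 5829 in bulge basal cells, against 6645 and 6072 in total epidermis cells. Their part in the keratin differences was not tested.

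**Figure D2:**
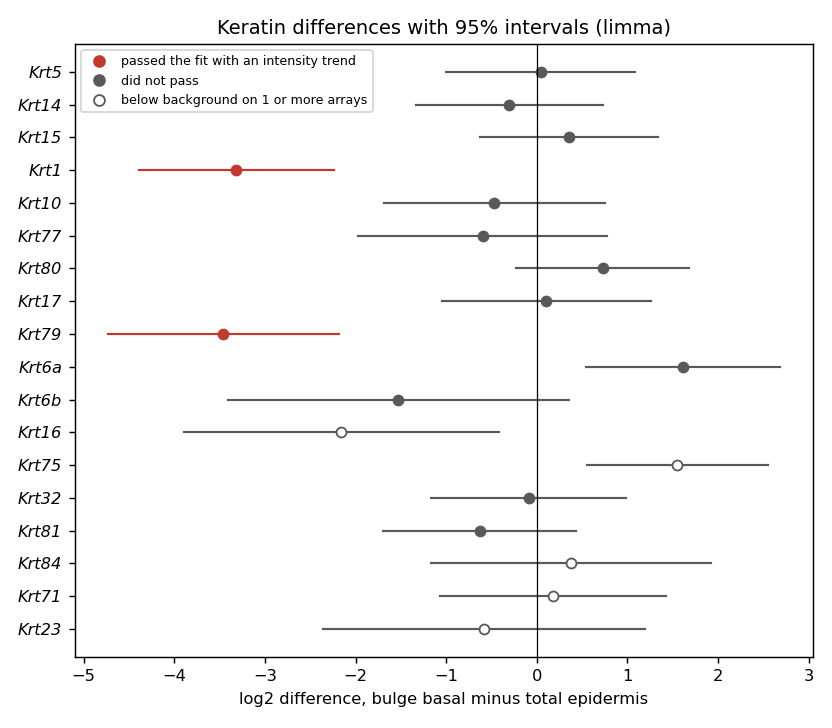
Log2 difference, bulge basal minus total epidermis, with the 95% interval of the plain limma fit for the 18 keratin genes above background on at least 1 array. Krt1 and Krt79 (red), which passed the trended fit, lie at -3.31 and -3.46, while the intervals of Krt6a and Krt75 lie above 0 and that of Krt16 below 0 without a call; open points were below background on 1 or more arrays.

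The 4 keratins of the companion layer and of activated epidermis went in both directions, and each had separate groups; none passed either fit. Krt6a is a type II keratin of the companion layer and the inner bulge layer, induced in wounded epidermis. It had 21288 and 14385 in bulge basal cells, against 6529 and 5016 in total epidermis cells. Both bulge basal arrays were above both total epidermis arrays. The log2 difference was 1.61 ± 0.42 (SE, interval 0.54 to 2.68), with an adjusted p of 0.241 in limma and 0.179 in the trended fit. Krt75, another type II keratin of the companion layer, had 288 and 366 in bulge basal cells, against 124 and 99.2 in total epidermis cells. It was above background on the bulge basal arrays alone, so its level there was at least 2.17-fold higher (adjusted p = 0.232 in limma).

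The other 2 probe sets of Krt6a gave larger differences than its brightest. The first of them (1422783_a_at) had 8162 and 2955 in bulge basal cells, against 668 and 440 in total epidermis cells, a 9.06-fold higher level. The other (1427700_x_at) had 2295 and 1419 in bulge basal cells, against 264 and 174 in total epidermis cells, an 8.43-fold higher level. All 3 probe sets of Krt6a thus had separate groups in the same direction. Over all probe sets their adjusted p in the trended fit was 0.227, 0.0885 and 0.0501, in the order given. An x in a probe set name marks probes that can match related transcripts. Krt6a and Krt6b are near-identical copies, so signal on the Krt6a probe sets may be shared between these 2 genes.

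**Figure D3:**
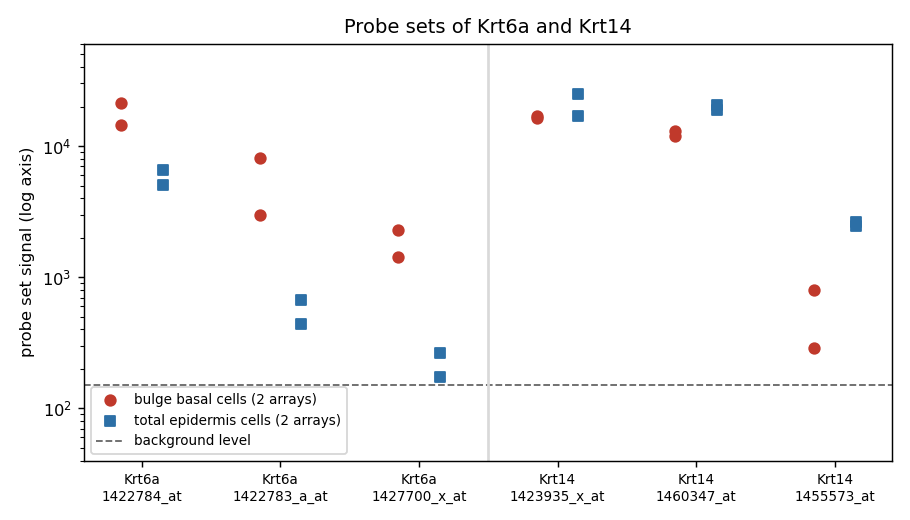
Signal on a log axis of the 3 probe sets of Krt6a and the 3 of Krt14, 1 point per array, with the background level of 150.0 dashed. All 3 Krt6a probe sets are higher in bulge basal cells, while the 3 Krt14 probe sets run from overlapping groups at the brightest to 796 and 288 in bulge basal cells, against 2462 and 2653 in total epidermis cells, at the dimmest.

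Krt6b and Krt16 ran the other way. Krt6b, the near-identical copy of Krt6a, had 543 and 234 in bulge basal cells, against 1857 and 571 in total epidermis cells. The groups were separate by a narrow margin, with a log2 difference of -1.53 ± 0.74 (SE, interval -3.41 to 0.35). Krt16, the type I partner of the Krt6 keratins in hyperproliferative epidermis, had 171 and 134 in bulge basal cells, against 1278 and 356 in total epidermis cells. One bulge basal array was below background, so the level was at least 4.21-fold lower, and the log2 difference of -2.16 ± 0.69 (SE) did not pass (adjusted p = 0.34 in limma). For both genes replicate 1 was higher than replicate 2 in each group, and total epidermis replicate 1 was the brightest array. Without that array the log2 difference was -0.68 for Krt6b and -1.23 for Krt16. The log2 difference of Krt6a exceeded that of Krt6b by 3.14 (exact p = 0.333, the smallest possible).

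Keratins of the hair shaft were mostly below background. Of 12 measured, Krt32, Krt81 and Krt84 were above it on at least 1 array, 0 passed, and the median log2 difference was -0.25 over the 12 and -0.09 over those 3. Krt32, a type I keratin of the hair cuticle, had 616 and 975 in bulge basal cells, against 890 and 762 in total epidermis cells, with overlapping groups. Krt81, a type II hair keratin, had 319 and 203 in bulge basal cells, against 374 and 414 in total epidermis cells; it was lower on both bulge basal arrays by a log2 difference of -0.63 (interval -1.69 to 0.44). Krt84, another type II hair keratin, had 158 and 68.0 in bulge basal cells, against 113 and 56.0 in total epidermis cells, and was above background on bulge basal replicate 1 alone. Krt35, a type I keratin of the hair matrix and cuticle, had 53.9 and 44.5 in bulge basal cells, against 132 and 118 in total epidermis cells. All 4 values were below background, so no fold is given. Krt31, Krt33a, Krt33b, Krt34, Krt36, Krt82, Krt83 and Krt86 were also below background on every array. Of 26 measured genes for keratin-associated proteins, which embed the hair keratins in the shaft, 5 were above background on at least 1 array and 0 passed.

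Keratins of the inner root sheath and of simple epithelia gave little signal. Krt71, an inner root sheath keratin, had 143 and 130 in bulge basal cells, against 175 and 83.4 in total epidermis cells. It was above background on total epidermis replicate 1 alone, and both group means were below it. Krt25, Krt27 and Krt72, other keratins of that sheath, were below background on all arrays. Krt23, a type I keratin, had 65.8 and 249 in bulge basal cells, against 176 and 208 in total epidermis cells, and its 2 bulge basal arrays enclosed the total epidermis values. Krt7, Krt8, Krt18, Krt19 and Krt20 were below background on all arrays. Krt8, Krt18 and Krt20 mark Merkel cells, the touch receptor cells of the epidermis, and the other Merkel cell markers Atoh1, Isl1 and Sox2 were below background on all arrays too. The remaining members Krt4, Krt12, Krt13 and Krt88 were likewise below background. In all, the 22 keratins below background on every array had signals between 2.99 and 132.

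In the mouse genome the keratin genes form a type I cluster on chromosome 11 and a type II cluster on chromosome 15, which also holds the type I gene Krt18. The RefSeq table (GRCm38.p6) lists 27 keratin genes on chromosome 11, of which 19 were measured and 7 were above background. It lists 26 on chromosome 15, of which 21 were measured and 11 were above background. Among those above background on all 4 arrays, log2 differences ran between -0.47 and 0.36 in the type I cluster and between -3.46 and 1.61 in the type II cluster. These ranges leave out Krt16 of the type I cluster, which was not above background on every array and was at least 4.21-fold lower. Some neighbouring genes differed in direction. Krt75, Krt6b, Krt6a and Krt5 follow each other in that order among the keratin genes, and none passed the plain or the trended fit. Krt75 was at least 2.17-fold higher, and the log2 differences of the other neighbours were -1.53, 1.61 and 0.05. Krt1 and Krt77 are also adjacent and were lower by unlike amounts, with -3.31 and -0.60.

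**Figure D4:**
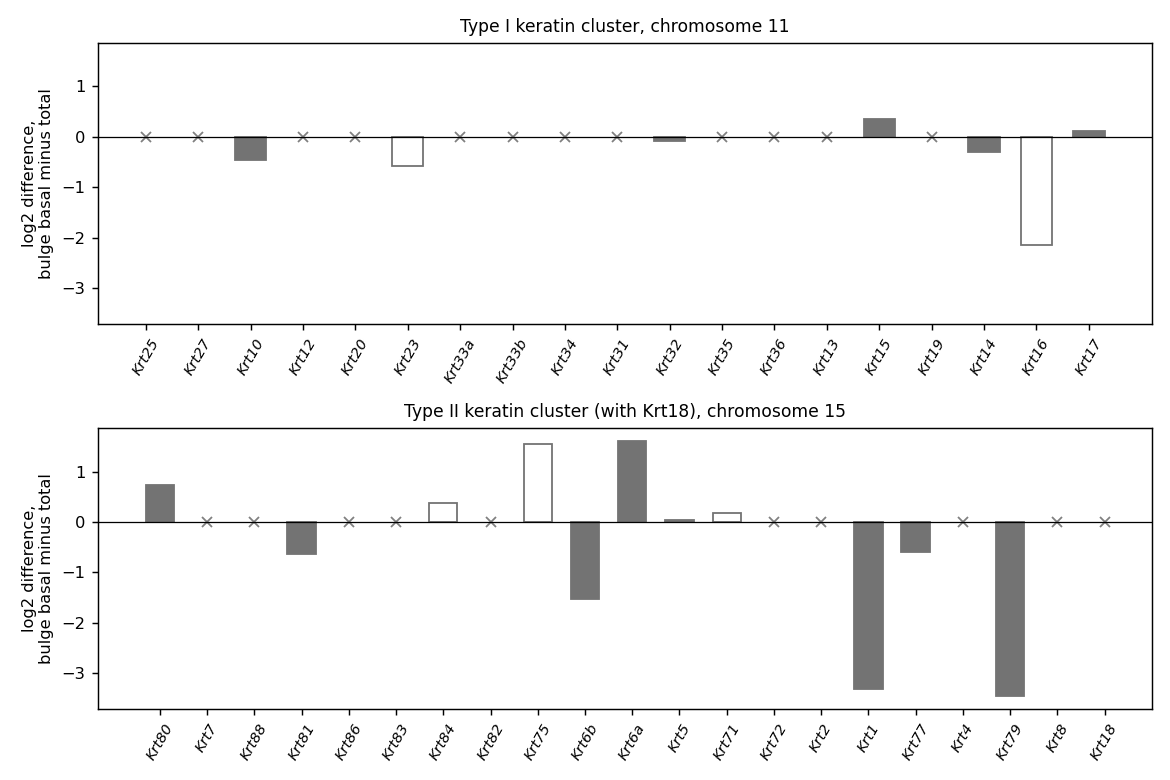
Log2 difference, bulge basal minus total epidermis, of the measured keratin genes in their order along the type I cluster (chromosome 11) and the type II cluster (chromosome 15), not drawn to genomic scale. Filled bars are genes above background on all 4 arrays, open bars are fitted differences of genes below it on 1 or more arrays, whose size is not exact, and crosses are genes below it on all arrays; the neighbours Krt6b, Krt6a and Krt5 stand at -1.53, 1.61 and 0.05.

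Promoter sequence was taken for 25 of the 40 genes, in 26 windows of the 250 bases before a transcription start. It is shown for 3 type II genes of the same cluster that differed in direction, Krt75 (higher, not called), Krt79 (fell) and Krt5 (close between the groups). The sequences are from RefSeq, written 5′ to 3′ on the gene's strand, with the letters ATAAAA of a TATA-like motif in capitals.
Krt75, chr15:101573905-101574154 (GRCm38.p6, minus strand): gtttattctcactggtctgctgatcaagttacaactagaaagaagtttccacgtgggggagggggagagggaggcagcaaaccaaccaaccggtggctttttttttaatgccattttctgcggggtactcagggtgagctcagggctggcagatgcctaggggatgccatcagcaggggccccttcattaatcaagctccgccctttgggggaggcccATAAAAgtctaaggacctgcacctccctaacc
Krt79, chr15:101940325-101940574 (GRCm38.p6, minus strand): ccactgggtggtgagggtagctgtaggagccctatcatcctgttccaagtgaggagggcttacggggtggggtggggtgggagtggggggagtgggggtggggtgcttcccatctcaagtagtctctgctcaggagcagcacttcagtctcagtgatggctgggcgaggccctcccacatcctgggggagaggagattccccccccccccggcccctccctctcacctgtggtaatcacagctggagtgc
Krt5, chr15:101712906-101713155 (GRCm38.p6, minus strand): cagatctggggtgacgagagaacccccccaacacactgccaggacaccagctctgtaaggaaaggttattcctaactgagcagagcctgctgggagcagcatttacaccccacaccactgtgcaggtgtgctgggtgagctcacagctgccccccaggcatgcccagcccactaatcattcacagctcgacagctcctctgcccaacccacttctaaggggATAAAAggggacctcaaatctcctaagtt

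ATAAAA, searched on both strands, begins 32 bases before the start of Krt75 (position -32) and 29 bases before that of Krt5 (position -29). The Krt79 window does not hold these letters. With its first base between 40 and 20 bases before the start, the motif was found in 10 of the 26 keratin windows (38.5%), against 2.49% of 32851 windows of all genes. Anywhere in the window it was found in 14 of the keratin windows (53.8%), against 17.0% of all. Only the letters ATAAAA were searched, so these shares do not count every TATA-like sequence. The windows of Krt10, Krt12, Krt27 and Krt71 hold tataaag near the start and were counted as without the motif. The windows of Krt20, Krt23, Krt25, Krt32, Krt34, Krt82 and Krt84 and 1 window of Krt13 hold ATAAAA near the start as well. Genes with this motif thus included keratins above and below background. Of the other motifs searched on both strands, TGANTCA (AP-1) was found in 2 keratin windows (7.69%), both of Krt13, against 6.75% of all. GCCNNNGGC (AP-2) was found in 2 keratin windows (7.69%), against 13.7% of all. Neither motif was found in the 3 windows shown.

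A list of 25 genes for proteins that anchor keratin filaments or regulate keratin genes was set beside the keratins, and 24 were measured. In the trended fit 2 rose (0.557% of all genes), 1 fell (0.524% of all genes) and 21 did not pass, with a median log2 difference of -0.11 against -0.02 over all genes. Hoxc13, a homeobox regulator of hair keratin genes, had 504 and 663 in bulge basal cells, against 91.9 and 96.4 in total epidermis cells, a rise of at least 3.85-fold. Lhx2, a LIM homeobox factor of bulge cells, rose 7.06-fold. Tfap2c, which encodes the AP-2γ factor of the epidermis, had 359 and 603 in bulge basal cells, against 3688 and 3460 in total epidermis cells, and fell 7.68-fold (adjusted p = 0.0376 in the trended fit, 0.0442 for Hoxc13 and 0.0426 for Lhx2). The genes for the filament anchors Dsp, Plec and Dst had log2 differences of -0.10, 0.11 and 0.07, with overlapping groups. The plakophilin gene Pkp1 was lower on both bulge basal arrays by 3.45-fold and the envoplakin gene Evpl by at least 2.58-fold, without passing. The linker genes Ppl, Jup and Pkp3 had overlapping groups. In all, 8 genes of the list were lower and 3 higher without overlap of the groups, which held for 20.5% and 18.0% of all genes. Foxn1 and Lef1, among the 8 lower, were below background on all arrays.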

How the data were processed

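RNA (200 ng per sample, oligo-dT T7 amplification) was hybridised to Affymetrix mouse arrays, per the labels' protocols. The deposited table holds 1 linear intensity per probe set and array, 22690 probe sets in all. Per the submitters' processing notes, GCOS, R 2.15.1, affy 1.36 and RMA were used, in no stated role. A shared trimmed mean (2% at each end) of 500.0 on every array with unequal medians (124 to 145) is a property of the deposited intensity values that RMA output does not have, and which tool made them is not given in the sources used here. There are no detection flags, and with 2 arrays per group their number sets the precision.

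Log2 of the intensity was taken. Probe sets with a single symbol (20380, of which 20351 matched RefSeq by Entrez ID) gave 12393 genes, each represented by its brightest probe set. The main test was limma 3.58.1 in R 4.3.3 on group alone; it was run on simulated data first. A gene below background on an array of its dimmer group gets a bound, with that array raised to the background level. Every keratin above background on at least 1 array is described with its values. Keratin members, gene lists and tests were chosen with earlier results of these data known. Scaling, variance model, pseudocount, dim-gene filter, probe set rule, replicate block, threshold and each array left out were varied.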

Additional observations from a re-analysis of the deposited data

How the results depend on the processing

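The plain limma fit called 0 genes and 0 keratins after array centring, quantile normalization, a robust variance without trend, the mean over probe sets, every probe set on its own, a threshold of 0.01, the replicate block and without any 1 array. The count of all genes and of keratins was 134 and 2 with an intensity trend, 86 and 2 with trend and robust variance, 37 and 1 (Krt1) with log2(signal + 32), 222 and 2 with at least 1 group mean above background, 196 and 2 with 2 or more arrays above it, and 112 and 2 at a threshold of 0.10; wherever 2 keratins were called they were Krt1 and Krt79, both lower. With trend and 1 array left out, the counts were 388 and 2 without bulge basal replicate 1, 350 and 2 without bulge basal replicate 2, and 0 and 0 without either total epidermis array. The spread then comes from the intact pair alone, which varied more in bulge basal cells (SD 0.92) than in total epidermis cells (SD 0.55). At the unadjusted level 1297 genes had p under 0.05 in the plain fit.

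The replicate numbers are shared between the groups, but no label says what they mark. Deviations of same-numbered arrays correlated at r = 0.58 over 7249 genes. A replicate block with trend called 917 genes and 6 keratins, Krt6a and Krt75 higher and Krt1, Krt79, Krt6b and Krt16 lower; without trend it called 0.

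The keratin median ran between -0.39 and -0.11 and stayed within the spread between replicates (SD 0.25). The direction of keratins that were not called could turn. Krt17 became -0.26 with the mean over probe sets. With 1 array left out the log2 difference ran between -0.32 and 0.54 for Krt17, -0.23 and 0.33 for Krt5, -1.54 and 0.38 for Krt23, -0.42 and 0.24 for Krt32, -0.35 and 0.71 for Krt71, -1.22 and 0.022 for Krt77, and -0.23 and 0.99 for Krt84. The values with a turned sign that lie inside these ranges were -0.080 for Krt5 without bulge basal replicate 2, -0.0018 for Krt17 and 0.024 for Krt32 without total epidermis replicate 1, and -0.13 for Krt84 without total epidermis replicate 2; the cause was not tested. Signals near 150.0 limit what can be said of Krt23, Krt71, Krt75 and Krt84.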
